A study of Mus musculus with 10 samples.

Results

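The MYC, MAX and MXD network was measured through 8 genes, Myc, Max, Mxd1, Mxi1, Mxd3, Mxd4, Mnt and Mlx, in CD4+ splenocytes of mice with abdominal sepsis and of sham-operated mice. Its members were all 18 probe sets, of 45101 on the array, that carried exactly 1 gene symbol in the platform annotation and whose symbol was among these 8. The genes were picked by name with earlier results of the comparison of septic with sham mice known. Their values in that comparison are therefore a description, given with standard errors and intervals but with no p-value, and nothing is supported with them.

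The septic group consisted of 5 C57Bl/6 mice, 8 to 12 weeks old, in which the cecum was tied off and pierced under halothane (cecal ligation and puncture, CLP), a standard model of polymicrobial peritonitis. The sham group was 5 mice of the same strain and age in which the cecum was brought out and handled under the same anaesthetic but left intact. Spleens were taken 6 h after surgery in both groups, and CD4+ cells were enriched to about 91% by magnetic removal of other cells. Each array held the RNA of 1 mouse, so n = 5 mice in each group, and the labels name no transgene, deletion or further agent for either. In such bulk samples, fewer cells of a type and less RNA per cell cannot be told apart.

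MYC is a transcription factor that binds DNA as a dimer with MAX, at the E-box letters CACGTG, and drives genes of growth, ribosome production and nucleotide synthesis. MXD1, MXI1, MXD3, MXD4 and MNT pair with MAX in its place, bind the same letters and bring the SIN3 and histone deacetylase corepressor. MLX is a MAX-like partner of MNT, MXD1, MXD4 and the glucose-sensing Mondo proteins. In T cells MYC is induced by antigen receptor signalling and is needed for growth after activation, and MXD proteins are known mainly from cells that leave the cell cycle and differentiate.

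Mxd1 was the member that stood apart between the groups: its brightest probe set was 2.31-fold higher in CLP mice, with no overlap between the groups. Its other 2 probe sets overlapped between the groups, at log2 differences of 0.11 and 0.13, and the mean of the 3 was not called. The signal of Mxd4, another MAX partner that opposes MYC, was 1.50-fold lower in CLP mice, with overlapping groups. Myc itself averaged 1.20-fold higher with a wide spread among CLP mice, and Max was nearly level between the groups. No gene of the MYC-induced targets passed by its brightest probe set, and the median log2 difference of these 35 tested genes was -0.05, beside 0.0046 over all 13073 genes tested. Among these targets a dimmer probe set of Odc1 was called higher, at a log2 difference of 0.74 and with no overlap between the groups.

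All values are scaled intensities, the deposited intensities after each array was brought to a common median, and tests used log2 of these with a floor at an intensity of 70.4. A probe set was tested when its mean log2 value lay above the 40th percentile of all probe sets, which 12 of the 18 member probe sets did, with at least 1 for each of the 8 genes. "Called" means an adjusted p below 0.05 by limma after Benjamini-Hochberg adjustment over all 27022 tested probe sets. Of the 12 tested member probe sets 1 was called higher in CLP mice and 0 were called lower by limma, beside 0.167% called higher and 0.537% called lower among all probe sets. At an unadjusted p below 0.05 the members gave 2 higher and 1 lower, beside 931 higher and 2020 lower among all 27022 probe sets. These counts describe where the members stand in the fit of all probe sets, and nothing is read from them. In 1 of the 12 every CLP array lay above every sham array, beside 0.862% of all tested probe sets, and in 0 of the 12 every CLP array lay below, beside 2.11%. The mean was higher in CLP mice in 10 and lower in 2, and the median log2 difference was 0.11 for the 12 and 0.0049 for all tested probe sets. The median size of the change, without sign, was 0.12 for the 12 and 0.10 for all. The brightness of a probe set depends on its probes, so levels are compared between mice and not between genes.

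**Figure D1:**
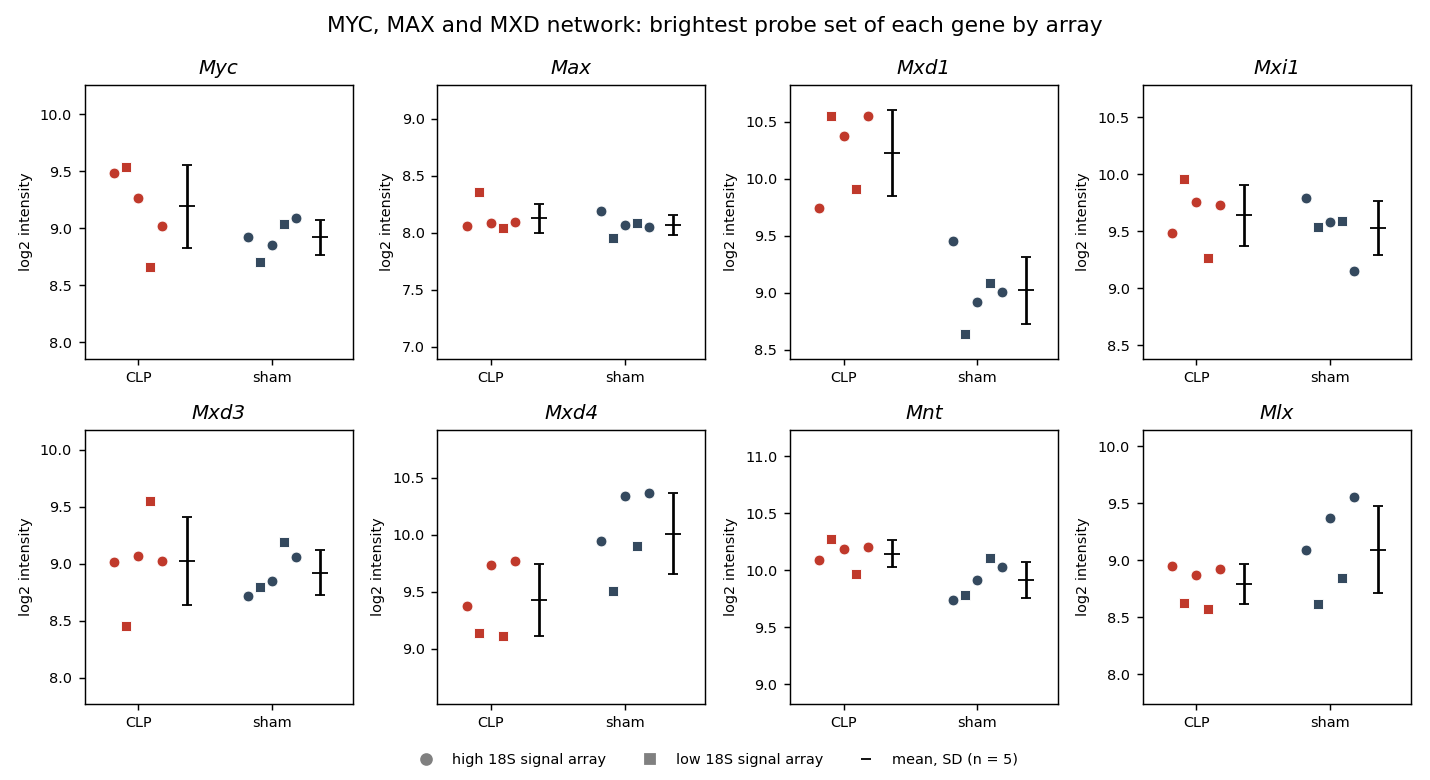
Scaled log2 intensity (y axis) of the brightest tested probe set of each of the 8 genes in every CLP and sham array (x axis); circles are arrays with a high and squares arrays with a low 18S ribosomal RNA signal, and bars show the mean and SD of 5 mice. Every panel spans the same number of log2 units: Mxd1 separates the groups, while the other 7 genes overlap.

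The defining markers of the labelled cells were read on every array, with scaled intensities from 2454.2 to 3143.7 for Cd3e and from 1431.6 to 2400.1 for Cd4. Array medians of the deposited intensities lay between 127.6 and 142.4, and the correlation between arrays over tested probe sets was between 0.93 and 0.99. The arrays fell into a high class, with an 18S ribosomal RNA signal, the mean of 3 control probe sets, above 1000 (3 CLP and 3 sham arrays), and a low class below it (2 CLP and 2 sham arrays). These classes are balanced between the groups, and values within them stand beside the results they touch. The summed signal of 9 CD4 T cell markers ran from 20872 to 22486 in CLP arrays and from 22659 to 26529 in sham arrays, without overlap, and none of the 9 was called. Among these 9 the log2 differences were -0.72 for Trat1, -0.69 for Cd5, -0.49 for Cd3g and -0.35 for Cd28. They were -0.12 for Cd3d, Cd3e and Cd4, -0.02 for Il7r and 0.21 for Ccr7. Sums of 7 NK and CD8 cell markers also did not overlap, from 2888 to 3376 in CLP arrays and from 3444 to 4265 in sham arrays. In that list the log2 differences were -0.54 for Klrd1, -0.40 for Eomes and -0.24 for Nkg7, and 0.09 for Cd8a, 0.17 for Cd8b1 and 0.07 for Prf1. The part of these shifts in the results below was not tested.

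MYC was read by 1 probe set. Myc had scaled intensities of 715.6, 742.2, 616, 403.6 and 517.7 in CLP mice, against 485.3, 417.3, 463.8, 525.4 and 546.6 in sham mice. Of the CLP mice, 3 lay above every sham mouse and 1 below every sham mouse, so the groups overlapped. The difference was 0.27 ± 0.16 on the log2 scale (SE, 95% interval from -0.09 to 0.62), and it was not called. The SD was 0.36 log2 units in CLP mice and 0.15 in sham mice. Without CLP replicate 4, the array with the lowest value, the difference was 0.40, and without CLP replicate 2 it was 0.18. Within the 18S classes it was 0.30 in the high and 0.23 in the low class.

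MAX, the partner that MYC and its opponents share, was also read by 1 probe set. Max gave 267.5, 327.5, 271.3, 263 and 273.4 in CLP mice, against 291.9, 247.5, 267.8, 272.2 and 264.7 in sham mice. CLP replicate 2 lay above all other arrays and the other CLP mice lay within the sham range. The log2 difference was 0.06 ± 0.09 (SE, 95% interval from -0.13 to 0.25), and Max was not called.

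Among the partners of MAX that oppose MYC, Mxd1 had 3 probe sets. The brightest, 1434830_at, had scaled intensities of 856.7, 1502.4, 1324.4, 959.8 and 1503.1 in CLP mice, against 702.5, 398.6, 482.8, 542 and 512.9 in sham mice. The lowest CLP mouse was above the highest sham mouse, and sham replicate 1 was the sham array nearest to the CLP group. The mean log2 signal was 10.23 ± 0.38 in CLP and 9.02 ± 0.30 in sham mice (SD, n = 5 each). The log2 fold change was 1.21 ± 0.19 (SE, 95% interval from 0.79 to 1.63), and this was the probe set called. Its difference was 1.10 in the high and 1.37 in the low 18S class, and between 1.11 and 1.33 when 1 array was left out. The call itself held in 3 of those 10 fits, without CLP replicate 1, CLP replicate 4 or sham replicate 1. It ended when CLP replicate 2, 3 or 5 or sham replicate 2, 3, 4 or 5 was left out. The call also ended with replicate number as a block, with no filter on dim probe sets, and in each 18S class alone.

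The other probe sets of Mxd1 did not show this difference. Probe set 1455104_at, which the annotation ties to the same accession as the brightest, gave 265.3, 277.2, 497.3, 397.4 and 313.6 in CLP mice, against 274.2, 360.5, 366.2, 408.9 and 208.4 in sham mice. The groups overlapped over most of their range, with a log2 difference of 0.11 ± 0.22 (SE, 95% interval from -0.36 to 0.58). That interval does not reach the interval of the brightest probe set. Probe set 1422002_at was dimmer, with a range from 116.7 to 147.1 in CLP mice and from 102.6 to 130 in sham mice, and a difference of 0.13 ± 0.10 (SE). With the mean log2 signal of the 3 probe sets the difference was 0.48 ± 0.10 (SE), which was not called among 13073 genes. Across the 10 arrays, after removal of the group means, the brightest probe set had a correlation of -0.10 with 1455104_at and 0.27 with 1422002_at, given as a description of probe sets on the same arrays.

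**Figure D2:**
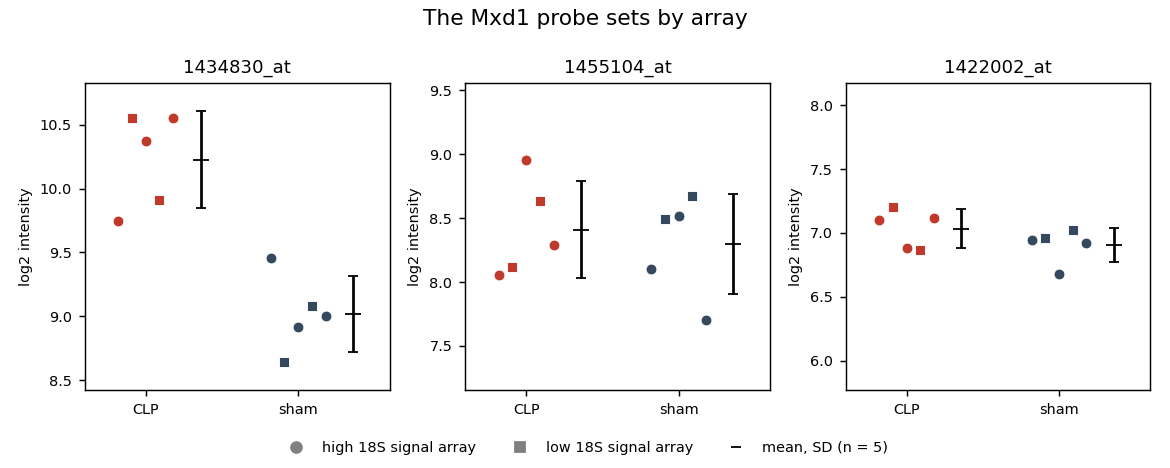
Scaled log2 intensity (y axis) of the 3 Mxd1 probe sets in CLP and sham arrays (x axis), with the mean and SD of 5 mice beside the points; circles and squares are arrays with a high and a low 18S signal. The groups are apart in 1434830_at and overlap in 1455104_at and 1422002_at.

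Mxd1 is abundant in neutrophils, so their markers were set beside it. The summed signal of 7 neutrophil markers ran from 2595 to 14258 in CLP arrays and from 4133 to 11107 in sham arrays, and none of the 7 was called. The markers went both ways: the log2 differences were 1.10 for Ngp, 0.86 for Camp and 0.54 for Ltf, and -0.82 for S100a8 and -0.90 for S100a9. CLP replicate 1, which had the highest sum of the CLP arrays (14258), had the lowest Mxd1 signal of its group (856.7). Sham replicate 1, which had the highest sum of the sham arrays (11107), had the highest Mxd1 signal of its group (702.5). The sum of 8 monocyte and macrophage markers was from 3702 to 4608 in CLP arrays and from 3103 to 4799 in sham arrays. Csf1r made up the largest part of it, with means of 2681.5 in CLP and 2666.7 in sham arrays. Here too the markers went both ways, with log2 differences of 0.72 for Cd14 and -1.20 for Vcam1. The others tested lay between -0.10 and 0.03, and none was called. The lowest values of the listed neutrophil and monocyte markers were 69 for Camp and 70.7 for Cd68. Both lie at about the intensity floor, and Cd68 was too dim to be tested. Such values do not show that these transcripts were detected on the arrays concerned. B cell markers summed to between 2871 and 5683 in CLP arrays and between 2886 and 4807 in sham arrays, and erythroid markers to between 1235 and 4731 in CLP arrays and between 839 and 2281 in sham arrays. Without CLP replicate 1 the Mxd1 difference was 1.33, and without sham replicate 1 it was 1.32.

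Promoter sequences are shown for Mxd1, the member called, and for Mxd4 and Mlx, the members whose signal followed the 18S class of the arrays. Each is the stretch of 250 bases before the gene start in RefSeq, assembly GRCm38.p6, read 5′ to 3′ on the strand of the gene, with E-boxes in capitals. The stretches are chr6:86669160-86669409 on the minus strand for Mxd1, chr5:34187711-34187960 on the minus strand for Mxd4 and chr11:101087040-101087289 on the plus strand for Mlx.
Mxd1: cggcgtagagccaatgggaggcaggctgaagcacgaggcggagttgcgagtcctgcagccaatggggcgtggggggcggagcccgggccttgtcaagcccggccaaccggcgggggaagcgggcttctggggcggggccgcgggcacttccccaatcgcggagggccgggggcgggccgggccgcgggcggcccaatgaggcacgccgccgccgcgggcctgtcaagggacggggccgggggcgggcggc
Mxd4: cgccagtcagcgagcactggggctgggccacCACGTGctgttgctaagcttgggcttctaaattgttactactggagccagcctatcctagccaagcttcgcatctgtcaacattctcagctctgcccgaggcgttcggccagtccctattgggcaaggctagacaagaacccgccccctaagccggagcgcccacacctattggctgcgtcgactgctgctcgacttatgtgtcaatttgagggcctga
Mlx: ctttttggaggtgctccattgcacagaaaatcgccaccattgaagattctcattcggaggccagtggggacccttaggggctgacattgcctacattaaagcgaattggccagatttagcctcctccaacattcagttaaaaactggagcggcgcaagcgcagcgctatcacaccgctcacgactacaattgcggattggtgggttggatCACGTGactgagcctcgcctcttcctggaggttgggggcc
CACGTG reads the same on both strands and was searched in windows of 300 bases, from 250 before to 50 after each gene start. It was found in 4 of the 7 member genes with a window, Max, Mxd4, Mnt and Mlx. Its letters were not in the windows of Mxd1, Mxi1 and Mxd3. Myc had no window, so CACGTG was not searched there. Over all genes in the table, 8.09% of 27025 held it in any window. By windows it was in 4 of the 9 of the members and in 7.15% of all 32851. The first base of the match lay 219 bases before the start of Mxd4, 123 before that of Mnt, 40 before that of Mlx and 3 before that of Max. Member windows had a GC content from 55% to 76.7%, above the median of 52.7% over all windows. A match of letters is a description and shows no binding in these cells.

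Mxi1, also called Mxd2, was level between the groups. Its brighter probe set gave 714.6, 995, 861.9, 614.6 and 850.6 in CLP mice, against 883.6, 740.3, 763.8, 770.2 and 566.7 in sham mice. The ranges lay over each other, and the log2 difference was 0.11 ± 0.15 (SE, 95% interval from -0.21 to 0.44). The dimmer probe set was not tested and ran from 68.1 to 88.1 in CLP mice and from 70.7 to 89 in sham mice, close to the floor.

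Mxd3, the MXD protein linked to dividing cells, had 3 tested probe sets. The brightest had 516.8, 351.2, 537.2, 748.2 and 519.9 in CLP mice, against 421.1, 443.7, 459.7, 583.1 and 533.5 in sham mice. CLP replicate 4 was the highest and CLP replicate 2 the lowest of all 10 arrays, so the CLP mice lay on both sides of the sham range. Its log2 difference was 0.10 ± 0.18 (SE), and those of the other 2 probe sets were 0.02 ± 0.13 and 0.07 ± 0.10. None was called, and without CLP replicate 4 the values of the brighter 2 were -0.03 and -0.07.

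Mxd4 was the member whose mean signal lay furthest below that of the sham mice. Its bright probe set had 664.8, 563.1, 854.2, 553 and 873.8 in CLP mice, against 985.7, 728.6, 1294, 954.7 and 1320.4 in sham mice. Of the CLP mice 3 lay below every sham mouse, and the groups overlapped through CLP replicates 3 and 5 and sham replicate 2. The log2 difference was -0.58 ± 0.19 (SE), with an upper end of the 95% interval at -0.17, and it was not called. It was -0.59 in the high and -0.58 in the low 18S class. With the 18S class as a block its SE was 0.12 and it was called lower, beside 0.648% of all probe sets called higher and 2.01% called lower with that block. The 3 dimmer probe sets of Mxd4 were not tested: 1434379_at ran from 72.4 to 105.2 in CLP and from 82.9 to 119.5 in sham mice, 1422575_at from 81.9 to 100.1 in CLP and from 87.5 to 102.9 in sham mice, and 1422574_at from 51.6 to 71.3 in CLP and from 57.6 to 76.4 in sham mice.

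MNT is the MAX partner found in most cell types, where it occupies E-boxes when MYC is scarce. Mnt had 1092.2, 1243.2, 1168.4, 1001.1 and 1182.1 in CLP mice, against 854.1, 884, 964.3, 1104.6 and 1042.8 in sham mice. Of the CLP mice 3 were above every sham mouse. The log2 difference was 0.23 ± 0.10 (SE, 95% interval from 0.02 to 0.45), and it was not called. The other Mnt probe set was under the floor on every array.

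MLX, the partner shared with the Mondo proteins, had 495.5, 394.6, 467.9, 381.7 and 486.9 in CLP mice, against 544.6, 392.2, 662.5, 458.5 and 752.7 in sham mice for its bright Mlx probe set. The highest sham mice lay well above the CLP range and the lowest inside it. The log2 difference was -0.30 ± 0.17 (SE, 95% interval from -0.68 to 0.07), and it was not called. Its value was -0.42 in the high and -0.13 in the low 18S class. The other Mlx probe set was at or under the floor on 9 of 10 arrays.

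**Figure D3:**
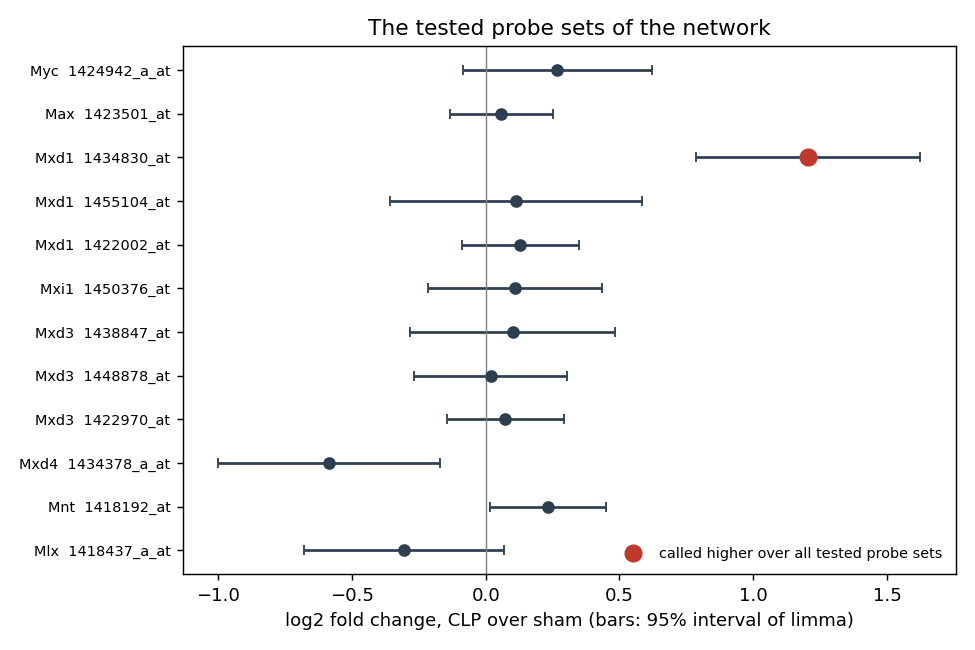
Log2 fold change of CLP over sham (x axis) for the 12 tested probe sets of the network (y axis), with bars for the 95% interval of limma. Only 1434830_at of Mxd1, at 1.21, was called over all tested probe sets, and the other probe sets lie between -0.58 and 0.27.

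The 18S class of the arrays is a contrast that did not choose the members, so it was tested, in a limma fit with group and class together. The class was itself chosen with earlier results of these data known. It cannot be told apart from odd (high) and even (low) replicate numbers. Mlx was 1.38-fold higher in the high class (log2 difference 0.46 ± 0.11, SE, adjusted p = 0.0156 by limma), and Mxd4 was 1.42-fold higher (0.51 ± 0.12, adjusted p = 0.0185 by limma). Within CLP mice Mlx ran from 467.9 to 495.5 in the high and from 381.7 to 394.6 in the low class, and within sham mice from 544.6 to 752.7 in the high and from 392.2 to 458.5 in the low class. For Mxd4 the ranges were 664.8 to 873.8 in the high and 553 to 563.1 in the low class of CLP mice, and 985.7 to 1320.4 in the high and 728.6 to 954.7 in the low class of sham mice. Every array of the high class thus lay above every low array of its own group for both genes. These 2 of 12 member probe sets stand beside 10.1% of all tested probe sets called higher in the high class and 4.99% called lower, so the count is not particular to the network. Myc (0.12 ± 0.16) and the brightest probe set of Mxd1 (0.13 ± 0.19) were not called for class. An interaction of class with CLP was called in 0 of the 27022 probe sets by limma, and in 1032 at an unadjusted p below 0.05, among them 0 member probe sets, with 3 against 3 and 2 against 2 arrays in the classes.

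**Figure D4:**
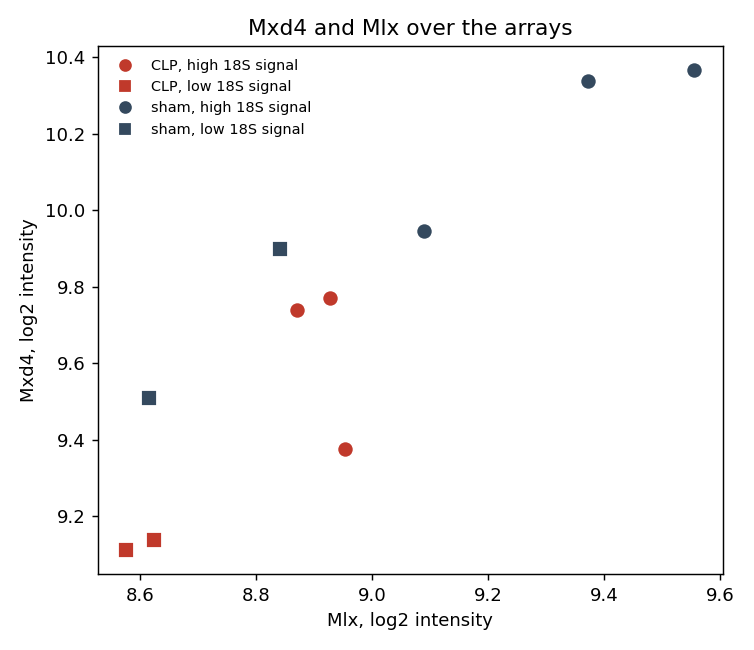
Scaled log2 intensity of Mxd4 (y axis) against that of Mlx (x axis) for the 10 arrays, coloured by group, with circles for a high and squares for a low 18S signal. Within each group the circles lie to the right of and above the squares.

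By the likeness of their signal over the 10 arrays, the named genes nearest to the brightest Mxd1 probe set among 12225 candidates were Plcl2 (r = 0.96), Rnf19a (0.96), Rras2 (0.96) and P2ry14 (0.95). After removal of the group means these correlations were 0.81, 0.82, 0.76 and 0.83, over the same 10 arrays. Their log2 differences between CLP and sham mice were 0.40 ± 0.09 for Plcl2, 0.72 ± 0.13 for Rnf19a, 1.19 ± 0.17 for Rras2 and 1.51 ± 0.29 for P2ry14 (SE). Nearest to Myc were Ctbs (r = 0.94), Slc6a13 (0.93), Smim3 (0.92) and Haus2 (0.92), with 0.93, 0.92, 0.90 and 0.90 after removal of the group means. The arrays share their labelling and scaling, and the highest of so many correlations are high by selection, so they are given as a description.

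Genes that work with or under the network were read from 7 lists of 103 distinct genes, of which 92 were tested, each by its brightest probe set. Of the 92, 0 rose and 1, Klf10, fell by limma, beside 0.199% of all genes called higher and 0.551% called lower. At an unadjusted p below 0.05 there were 11 of the 92. Over all 27022 tested probe sets, 931 were higher and 2020 lower at that cut, a count of probe sets and not of genes. The median log2 fold change of the 92 was -0.02. Groups without overlap were seen for Cdkn2c, with CLP above, and for Ccnt1 and Klf10, with CLP below. Of all 13073 genes tested, 111 had CLP above and 298 had CLP below without overlap.

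The targets that MYC induces, genes of ribosome assembly, polyamine and nucleotide synthesis and metabolism, gave no call by their brightest probe sets among 35 tested of 36. By the brightest probe set of each gene, their mean was higher in 16 and lower in 19, over a range from -0.44 to 0.41. Odc1, the rate-limiting enzyme of polyamine synthesis, had 5612, 5489.7, 5475.9, 3637 and 4841 in CLP mice, against 3853, 3833.3, 3860, 3522 and 3630 in sham mice by its brightest probe set. Only CLP replicate 4 lay within the sham range. The log2 difference was 0.41 ± 0.12 (SE, adjusted p = 0.166 by limma). A dimmer probe set of Odc1 rose, with 505.6, 695.1, 588.1, 399.2 and 558.9 in CLP mice, against 302.8, 339.2, 295.1, 327.3 and 352 in sham mice, and a log2 difference of 0.74 ± 0.13 (SE, adjusted p = 0.0369 by limma). The third Odc1 probe set gave 0.69 ± 0.17 (SE) and did not pass. The next by unadjusted p were Ranbp1, a regulator of nuclear transport (-0.21 ± 0.10), Ppat, of purine synthesis (-0.44 ± 0.22), and Hk2, a hexokinase (0.31 ± 0.17). The other Ppat probe set gave -0.05 ± 0.18 (SE). The nucleolar MYC targets Ncl (-0.01 ± 0.14), Npm1 (-0.16 ± 0.12) and Fbl (0.0001 ± 0.17) were chosen after their values were seen and did not pass. Other probe sets of Ncl ran from -0.42 to 0.12. Ccnd2 and Wdr12 were also chosen after their values were seen, and neither passed. Ccnd2 gave -0.21 ± 0.12 by its brightest probe set and -1.01 ± 0.27 by a dimmer one (SE). Its remaining probe sets ran from -0.33 to -0.21. Wdr12 gave 0.29 ± 0.16 by its brighter and -0.37 ± 0.14 by its dimmer probe set (SE).

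The genes that MYC represses had a median of 0.11 over 9 tested of 10, and 6 of them had a higher mean in CLP mice. None was called. Cdkn2c, an inhibitor of cyclin-dependent kinases, differed by 0.18 ± 0.08 with no overlap of the groups, and Cdkn2b, of the same family, by -0.21 ± 0.09. Cdkn1a (p21) gave 0.20 ± 0.13 and Ndrg1 0.11 ± 0.09 (SE).

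Among targets of MLX and its Mondo partners, 5 tested of 6, Klf10, a Krüppel-like factor induced by TGF-beta, fell. It had 303.3, 248.1, 205.7, 210.8 and 199.5 in CLP mice, against 340.5, 389.5, 351.1, 367.9 and 325.7 in sham mice. Every CLP mouse was below every sham mouse, with a log2 difference of -0.62 ± 0.12 (SE, adjusted p = 0.0469 by limma). The call held in 7 of 23 other settings. The list as a whole had a median of 0.06, with a higher mean in 3 genes and a lower mean in 2. Txnip gave 0.44 ± 0.26, Hk2 0.31 ± 0.17, Pfkfb3 0.06 ± 0.14 and Arrdc4 -0.06 ± 0.11 (SE), named after their values were seen. Other probe sets gave 0.29 for Txnip and -0.18 for Pfkfb3.

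The corepressor that MXD proteins recruit gave no call among 13 tested of 16 genes, with a median of -0.12 and 9 lower means. Sin3b, a scaffold of that complex, differed by 0.32 ± 0.11, and the deacetylase Hdac2 by -0.52 ± 0.16. Of the other probe sets, those of Sin3b ran from -0.32 to 0.33 and those of Hdac2 gave -0.32 and -0.07. Arid4b gave -0.23 ± 0.11 and Ing1 -0.21 ± 0.12 (SE). Their other probe sets gave 0.07, -0.11 and 0.05 for Arid4b, and -0.25, 0.01 and -0.27 for Ing1. Coactivators and partners of MYC had a median of -0.12 over 12 tested of 14, and none was called. Ccnt1, the cyclin of the elongation kinase P-TEFb, gave -0.29 ± 0.09 with every CLP mouse below every sham mouse, while its other probe set gave -0.02 ± 0.15 (SE). Smarcb1, a chromatin remodelling subunit, gave -0.41 ± 0.16, Trrap -0.27 ± 0.20 and Bptf -0.14 ± 0.13 (SE). Other probe sets gave -0.13 and 0.07 for Smarcb1, and 0.05, -0.05 and -0.17 for Bptf.

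Regulators of MYC protein stability had a median of -0.02 over 13 tested of 14, with no call. Trim32 gave -0.38 ± 0.18, Ppp2r5a -0.19 ± 0.12, Usp22 0.19 ± 0.14 and Fbxw7, the ubiquitin ligase subunit that marks MYC for destruction, -0.13 ± 0.10 (SE). The other MAX, MLX and E-box factors had a median of 0.10 over 6 tested of 8. Usf2, which binds the same E-box without MAX, had 1960.8, 2248.7, 2914.4, 2100.2 and 2851.1 in CLP mice, against 1576.5, 1175.5, 1842.7, 1384 and 1998.7 in sham mice. Only sham replicate 5 reached into the CLP range, and the log2 difference was 0.61 ± 0.16 (SE, adjusted p = 0.131 by limma). The other Usf2 probe set gave 0.02 ± 0.15 (SE). Usf2 was called in 2 of 23 other settings, the 18S class as a block among them. Mlxip (MondoA), the partner of MLX, gave 0.56 ± 0.23, Mga, a MAX partner, -0.44 ± 0.18, and Mycl 0.10 ± 0.10 (SE). MYC's relative Mycn gave -0.0035 ± 0.10 and was named after its value was seen.

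**Figure D5:**
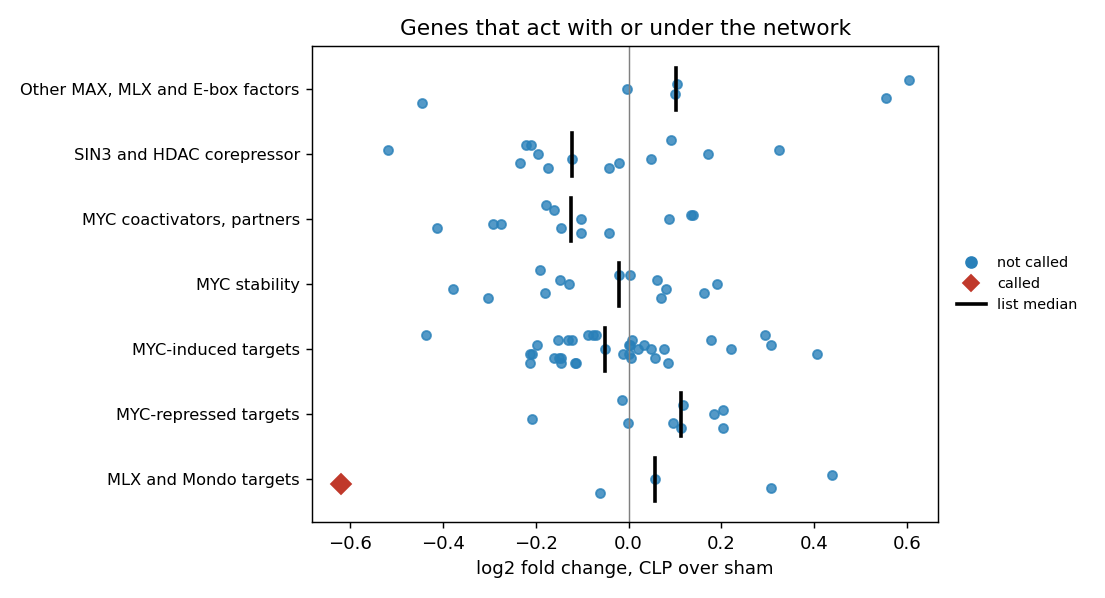
Log2 fold change of CLP over sham (x axis) for every tested gene of the 7 lists (y axis), with a bar at each list's median and a diamond for the gene called. By the brightest probe set of each gene, Klf10 at -0.62 is the only gene called, and the medians lie between -0.12 and 0.11.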

How the data were processed

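RNA of CD4+ splenocytes was read on Affymetrix mouse arrays, 1 per mouse, from 5 CLP and 5 sham mice. Per the labels' protocols, column-purified RNA was turned into biotinylated cRNA with 2 rounds of amplification. The authors deposited a linear intensity for each probe set on each array; how probes were summarised, background-corrected and scaled is not given in the sources used here. The titles of all 5 sham arrays read biological replicate 1, with a suffix from sham-1 to sham-5. These suffixes were taken as the sham replicate numbers, since the series text gives 5 biological replicates in each group.

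Of 45101 probe sets, 64 were controls, 34945 had 1 gene symbol in the platform annotation, 932 several and 9160 none in the annotation used. Symbols were checked by Entrez identifier against RefSeq (GRCm38.p6), and 0 changed. Arrays were brought to a common median, values under the 25th percentile (70.4) were raised to it before log2, and the test left out controls and any probe set whose mean was under the 40th percentile. CLP was compared with sham with limma 3.58.1 in R 4.3.3 over 27022 probe sets, with Benjamini-Hochberg adjustment and a threshold of 0.05. The fit was tested on simulated arrays. The number of arrays limits the precision.

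The members, lists, 18S class and tests were chosen with earlier results of these data known. Every member probe set is named; of each list the called genes are, or otherwise up to 4 with the lowest p; other named genes are marked as chosen after their values were seen. Marker sums use the brightest probe set of each gene. Other settings were quantile normalization, no scaling, other floors and filters, variance models, array weights, blocks by replicate number and 18S class, each class alone, and leaving out each array. Figures were drawn with matplotlib 3.10.9.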

Additional observations from a re-analysis of the deposited data

Results flagged for a closer look

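Of 24 checks for a single outlying array (12 tested member probe sets in each group of 5), 2 picked out an array far from the rest of its group; chance gives about 1 in 20. For Max, CLP replicate 2 had a log2 signal of 8.36, with the next CLP array at 8.10, a gap of 0.82 of the range of the group. For the dimmest tested Mxd3 probe set, 1422970_at, CLP replicate 5 had 6.73, with the next CLP array at 6.87, a gap of 0.75 of the range.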

How the results depend on the processing

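Of 275 values of member probe sets under other settings, 273 moved by less than 1 SD between replicates and 2 moved further. Much of this count was fixed beforehand, so it is a weak test of stability. Changes of filter, variance model or block left each fold change as it was. Leaving out 1 array can move a group mean by only part of its SD. The called Mxd1 value kept its sign in its 24 settings, of which it was called in 12. Its groups did not overlap, so leaving out arrays could not change that sign. Max moved to 0.18 in the low 18S class alone, and Mxd1 to 0.48 with its probe sets averaged. The brightest Mxd1 probe set was between 1.10 and 1.37 in the 23 other settings that used it alone. Of the member probe sets, 0 were called higher without the filter on dim probe sets, with the replicate block, and in the high or the low 18S class alone, so that the Mxd1 call ended there; leaving out 1 array gave from 0 to 1. The count called lower was 1 (Mxd4) with the replicate block and with the 18S class as a block.

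Over all probe sets, 45 were called higher and 145 lower by limma. These became 0 and 3 with no filter, and 23 and 69 when only probe sets wholly at the floor were left out, a setting chosen after seeing the data. They became 154 and 355 with array weights and 175 and 543 with the 18S class as a block. The replicate block gave 90 and 158. In each 18S class alone both counts were 0, with 878 higher and 2733 lower at an unadjusted p below 0.05 in the high class and 830 and 1129 in the low class. Leaving out 1 array gave from 0 to 123 higher and from 4 to 383 lower, the lowest with sham replicate 3 left out and the highest with CLP replicate 1 left out. The count of pathway list genes called, 1, became 0 with quantile normalization, with no filter, with probe sets wholly at the floor left out, with trend and robust variance and in each 18S class alone, and 2 with array weights and with the 18S class as a block; leaving out 1 array gave from 0 to 2. The gene called was not always Klf10: the replicate block called Usf2 in its place, and leaving out CLP replicate 4 called Odc1 and Mga in its place. Except for the numbers of arrays and probe sets that these settings change, the cause was not tested.

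Replicate numbers were not taken to pair the mice, since not every pair exceeded 0.1: the correlations of same-numbered arrays, after removal of group means, ran from 0.063 to 0.582, and 1 of 5 CLP arrays correlated best with its own number. Odd numbers fall in the high and even numbers in the low 18S class. The 6 member probe sets near or under the floor have no usable fold change.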
